A study of Mus musculus with 4 samples.

Results

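The regions described here are promoters that were accessible in each of 3 ATAC-seq peak lists from NMuMG cells, a non-transformed epithelial line from the mouse mammary gland. They were selected on the peak calls themselves, so their presence in the lists is the rule and not a result. In every list, intervals narrower than 150 bp were removed and intervals less than 1000 bp apart were joined. A region of the TGFβ list was then a shared promoter region when it overlapped, by at least 1 bp, a region of the vehicle list and a region of the 10 min list, and also lay within 1000 bp of an annotated transcription start site (TSS, mm9, GENCODE vM1). This held for 8420 of the 38532 regions of the TGFβ list (21.9%, 95% Wilson interval 21.4 to 22.3%), and for 76.9% of its 10948 regions at a TSS. Of the other TGFβ regions at a TSS, 1284 were found in the 10 min list and not in the vehicle list, 173 in the vehicle list and not in the 10 min list, and 1071 in neither. The shared promoter regions covered 6.35 Mb of the 18.7 Mb in the TGFβ list (34.1%).

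The labels describe 4 samples, 1 for each group. The vehicle list and the TGFβ list came from cells in complete medium that received the carrier or 5 ng/ml TGFβ1 for 2 h. The 10 min list came from cells kept for 6 h without serum and insulin before the carrier or 5 ng/ml TGFβ1 was added for 10 min. Both of those samples name the same list, so it was not assigned to a treatment, and it differs from the other lists in time, medium and library at once. These 3 differences, and a possible difference in treatment from the vehicle list, cannot be told apart. All groups are 1 established line, and the study's methods describe peaks kept as reproducible between 2 biological replicates. The labels give 1 sample per condition, so it is not settled which replicates were compared, nor what the score measures. Each condition is 1 list, so conditions were described and not tested against each other. Intervals cover the counting of regions only, and neighbouring regions are not independent.

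A promoter is the stretch of DNA at which RNA polymerase II is assembled. At active promoters this stretch is depleted of nucleosomes, and the Tn5 transposase of the ATAC-seq assay cuts it readily. In mammals the promoters used in nearly every cell type, those of genes for protein synthesis and breakdown, respiration and DNA replication, mostly lie in CpG islands, which are GC-rich and keep the CpG dinucleotide that the rest of the genome has largely lost. Factors such as ETS proteins, NRF1, NF-Y, SP1 and YY1 bind close to their start sites. Promoters of genes restricted to 1 tissue are more often poor in CpG and more often carry a TATA box.

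The sequences below are examples of motif matches in shared promoter regions. Each is the 100 bases immediately before the representative TSS of a housekeeping gene, 5′ to 3′ on the gene's strand, read from mm9. They were picked from regions with the top score in all 3 lists. For each motif the promoter with its match closest to the most frequent position was taken, so the positions in these examples follow from the choice. The requirements that the printed bases lie inside all 3 regions and outside annotated exons were set after the values had been seen. Capitals mark the match named for each.
Mrps16 (mitochondrial ribosomal protein, minus strand, chr14:21212778-21212877), ETS match: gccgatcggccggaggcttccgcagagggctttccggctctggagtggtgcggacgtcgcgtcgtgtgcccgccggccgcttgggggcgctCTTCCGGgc
Mrpl9 (mitochondrial ribosomal protein, plus strand, chr3:94247140-94247239), NRF1 match: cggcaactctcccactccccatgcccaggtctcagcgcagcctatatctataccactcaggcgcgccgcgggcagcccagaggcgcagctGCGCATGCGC
Eif3f (translation initiation factor, plus strand, chr7:116077831-116077930), NF-Y match: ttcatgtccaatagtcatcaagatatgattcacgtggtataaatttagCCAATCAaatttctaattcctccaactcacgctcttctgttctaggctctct
Eif3j (translation initiation factor, plus strand, chr2:121854182-121854281), SP matches: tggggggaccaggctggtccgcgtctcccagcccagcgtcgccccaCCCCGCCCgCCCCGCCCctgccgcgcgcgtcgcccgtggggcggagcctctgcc
Psmb2 (proteasome subunit, plus strand, chr4:126354774-126354873), ZBTB33 and CRE matches: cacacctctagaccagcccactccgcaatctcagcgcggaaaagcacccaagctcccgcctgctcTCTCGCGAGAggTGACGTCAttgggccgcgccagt
The most frequent position of YY1 matches lay after the start site, so for Psmb6 (proteasome subunit, plus strand, chr11:70338885-70338914) 30 bases of its first exon are shown: agtagcagaggAAGATGGCggccgccttag

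The CpG content is shown in a promoter chosen after the values had been seen, with each CpG in capitals. Exosc5 encodes a subunit of the RNA exosome.
Exosc5 (plus strand, chr7:26444072-26444171), 7 CpG: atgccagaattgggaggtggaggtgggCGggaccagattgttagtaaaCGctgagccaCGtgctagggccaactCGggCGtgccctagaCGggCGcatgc

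Promoter sequence was not used by the rule, and it was compared over 1 window per protein-coding gene, from 250 bp before to 50 bp after the TSS shared by most of its transcripts. The 8307 genes with a shared region at that TSS had a median GC content of 61.7% and a median ratio of observed to expected CpG of 0.81. In the 12050 genes with no region of any list at that TSS these medians were 49.7% and 0.263, and in the 1993 genes with a region of some list but not a shared one they were 58.7% and 0.645. A window was called high in CpG when its GC content reached 55% and its CpG ratio 0.65. This was so for 65.6% of promoters with a shared region (95% interval 64.6 to 66.6%), 40.6% of those with a region of some list, and 13.8% of those with none. The difference between the first and the last was 51.8 points (95% Newcombe interval 50.6 to 53.0). The 8307 genes lay at 7308 members, so 1 region can count for several genes. The intervals of these shares and of the motif shares do not allow for this.

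Most short motifs were also more frequent in promoters with a shared region than in those with none. The letters CCGGAAG of ETS factors, searched on both strands, were found in 21.5% of promoters with a shared region and in 3.36% of those with no region, a difference of 18.1 points (17.2 to 19.1), against 10.9% of all promoters. The SP letters GGGCGGGG were found in 36.8% against 11.0% (all promoters 22.2%). For NF-Y (CCAATCA or CCAATGA) the shares were 16.4% and 10.6% (all 12.6%), with 8.18% in promoters with a region of some list, for NRF1 (GCGCATGC) 6.02% and 1.46% (all 3.27%), and for YY1 (AAGATGGC) 5.68% and 1.98% (all 3.47%). The cyclic AMP response element TGACGTCA was found in 4.04% against 1.05% (all 2.34%), the ZBTB33 letters TCTCGCGA in 2.64% against 0.473% (all 1.31%), and the ZNF143 letters ACTACAAT in 1.19% against 0.498% (all 0.779%). None of the listed motifs contains another. Of the promoters with a shared region 67.0% held at least 1 of the ETS, NRF1, NF-Y, SP, YY1, CRE and ZBTB33 motifs, compared with 26.1% of those with no region.

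The opposite order was seen for TATAAA on the sense strand, which was found in 3.8% of promoters with a shared region and 13.1% of those with none, a difference of -9.29 points, against 9.01% of all promoters. TGAGTCA, the letters of AP-1, the dimers of JUN and FOS proteins, were found in 3.01% and 5.2% (all 4.42%), a difference of -2.19 points (-2.72 to -1.64). The palindrome GTCTAGAC of SMAD3 and SMAD4, the proteins that carry the TGFβ signal to DNA, was rare, with 17 of 8307 shared promoters (0.205%) and 18 of 12050 (0.149%), and the interval of that difference spans 0 (-0.0605 to 0.19 points). For SMAD proteins only this exact palindrome was searched, so other sequences that they bind were not counted. A match is a run of letters only and is no record of binding.

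**Figure D1:**
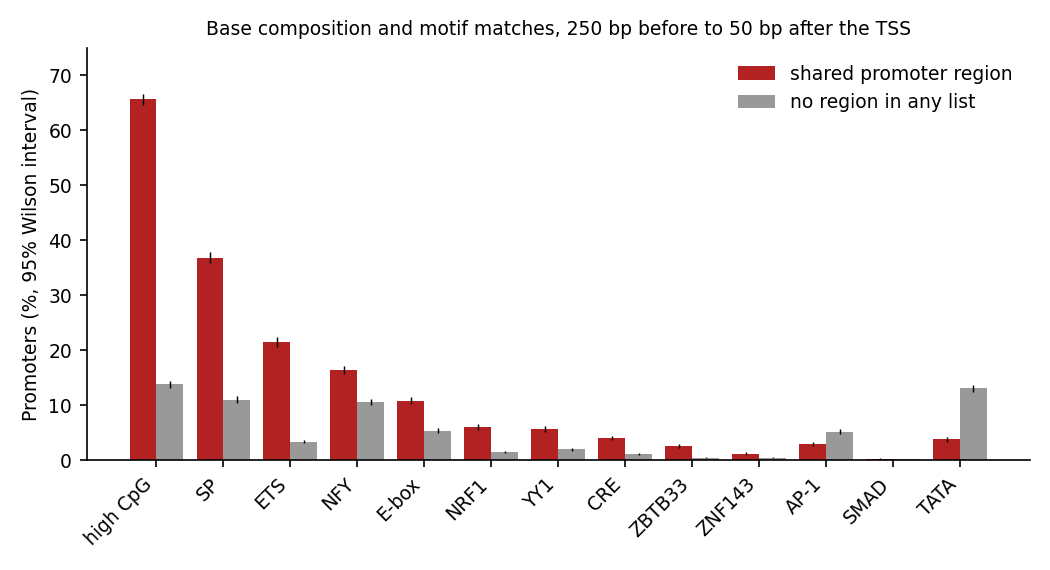
Percentage of promoters (y axis, 95% Wilson intervals as bars) that are high in CpG or hold each motif (x axis), for genes with a shared promoter region (red) and for genes with no region in any list (grey). High CpG, SP and ETS show the widest gaps, with 65.6% against 13.8% for high CpG, while AP-1 and TATA are lower in the shared promoters.

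Because several of these motifs contain CpG, the shares were also taken among high CpG promoters alone. ETS kept most of its difference there, with 23.9% of 5449 shared promoters against 7.82% of 1662 with no region (16.1 points, 14.3 to 17.7). YY1 was at 6.22% against 2.05% (4.18 points, 3.17 to 5.06) and the cyclic AMP response element at 4.81% against 2.23%. SP narrowed to 45.1% against 39.4% (5.74 points, 3.03 to 8.41) and NRF1 to 6.96% against 5.11% (1.84 points, 0.508 to 3.03). The E-box CACGTG, bound by factors such as MYC and USF, was found in 10.8% of all shared promoters and 5.39% of those with no region, but in 11.8% and 11.7% among high CpG promoters, a difference of 0.0491 points (-1.79 to 1.76). NF-Y was at 16.3% against 12.4% (3.88 points, 1.96 to 5.69). TATAAA narrowed to 2.22% against 3.55% (-1.33 points, -2.39 to -0.434), and the interval for AP-1 spans 0 (-0.341 points, -1.24 to 0.395).

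Motif positions were uneven. In the shared promoters the 10-bp bin with most ETS matches began at the TSS itself, with 206 of 2178 matches. The most frequent bin began at -60 bp for NF-Y, at -50 bp for SP and at -30 bp for the cyclic AMP response element and for TATAAA. YY1 differed from these, with its most frequent bin at 20 bp after the TSS (92 of 487 matches).

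Members with an NF-Y match also differed in score. Scores, taken as the authors' scaled values of the reproducibility method, stop at 1000 and are read within a list only. A joined region took the highest score among its peaks, so a region with more peaks had more chances to reach 1000. The 7308 members at a representative TSS were each given the promoter window of 1 gene. A match at another gene of the same region was not counted. The score stood at 1000 in all 3 lists for 66.4% of the 1198 members whose promoter held an NF-Y match (63.6 to 69.0%) and for 43.5% of the 6110 without (42.2 to 44.7%). For ETS the shares were 52.4% and 45.8%, and for TATAAA 40.2% with a match and 47.5% without. High CpG members were wider than the others, with median widths of 626, 727 and 865 bp in the vehicle, TGFβ and 10 min lists against 521.5, 622 and 742 bp. Their TGFβ to vehicle width ratios had overlapping intervals, 1.081 (1.07 to 1.091) and 1.096 (1.078 to 1.115).

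Of 22350 protein-coding genes 8882 had a shared promoter region at one of their start sites. This share of 39.7% is the background against which each gene family is read. Families were taken whole by symbol, so some hold genes by name only. In 15 housekeeping families together, 335 of 406 genes had a shared promoter region (82.5%, 78.5 to 85.9%), while in 13 tissue-restricted families this held for 10 of 1836 (0.545%, 0.296 to 1.0%).

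All 9 genes of the RNA exosome, which trims and degrades RNA, and all 8 of the COP9 signalosome, which regulates ubiquitin ligases, had a shared region. So had 20 of 21 tRNA synthetase genes, which load amino acids onto tRNAs, the exception being Vars, with a region in the TGFβ and 10 min lists only. The replication origin and MCM proteins followed with 20 of 22 (not Cdt1 and Mcm4), nuclear pore proteins with 18 of 20 (not Nup160 and Nup210l), and the anaphase-promoting complex with 8 of 9 (not Anapc16). Mediator subunits reached 26 of 31, proteasome subunits 34 of 41 and respiratory complex I subunits 30 of 37. Genes named as translation initiation factors (Eif) reached 42 of 52, a list that also holds by name the Argonautes Eif2c1 to Eif2c4, the kinases Eif2ak1 to Eif2ak4 and the binding proteins Eif4ebp1 to Eif4ebp3 and Eif4enif1. Mitochondrial ribosomal proteins reached 60 of 75. Genes named as general transcription factors (Gtf2 and Taf) reached 31 of 39, a list that also holds Taf1b, Taf1c and Taf1d, which serve RNA polymerase I. The lowest were the subunits of RNA polymerase II with 9 of 12, the chaperonin with 6 of 8 and the vacuolar ATPase with 14 of 22.

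Some of the genes missing from these families are themselves tissue-restricted. Among proteasome genes without any region were Psma8, the testis form, Psmb11, the thymus form, and Psmb8, an immunoproteasome subunit. The vacuolar ATPase genes with no region included Atp6v0a4, Atp6v1b1 and Atp6v1g3, forms of specialised acid-secreting cells such as those of the kidney, and Atp6v0d2, known from osteoclasts. Others are needed in every dividing cell. Mcm4, a subunit of the replicative helicase, Polr2b, the second largest subunit of RNA polymerase II, and Cct3 and Cct7 of the chaperonin had no region in any list. A gene without a region was not shown to be closed.

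The tissue-restricted families were nearly empty. Of 1113 olfactory receptor genes 1 had a shared region, Olfr1160, and none of 320 vomeronasal receptors, 53 defensins, 46 keratin-associated proteins, 35 bitter taste receptors, 26 prolactin genes, 23 Serpina inhibitors or 22 glutamate receptors had one. Potassium channels had 4 of 96, and the GABA-A receptors (Gabre), sodium channels (Scn3a) and Cyp2 cytochromes (Cyp2j6) had 1 each. Of the 2 hits among natural killer lectin receptors, Klrg2 and Klraq1, the latter carries the prefix by name only and is not a receptor of that kind. Zinc finger proteins named Zfp, a large and mixed group, stood between the extremes with 216 of 365 (59.2%, 54.1 to 64.1%).

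**Figure D2:**
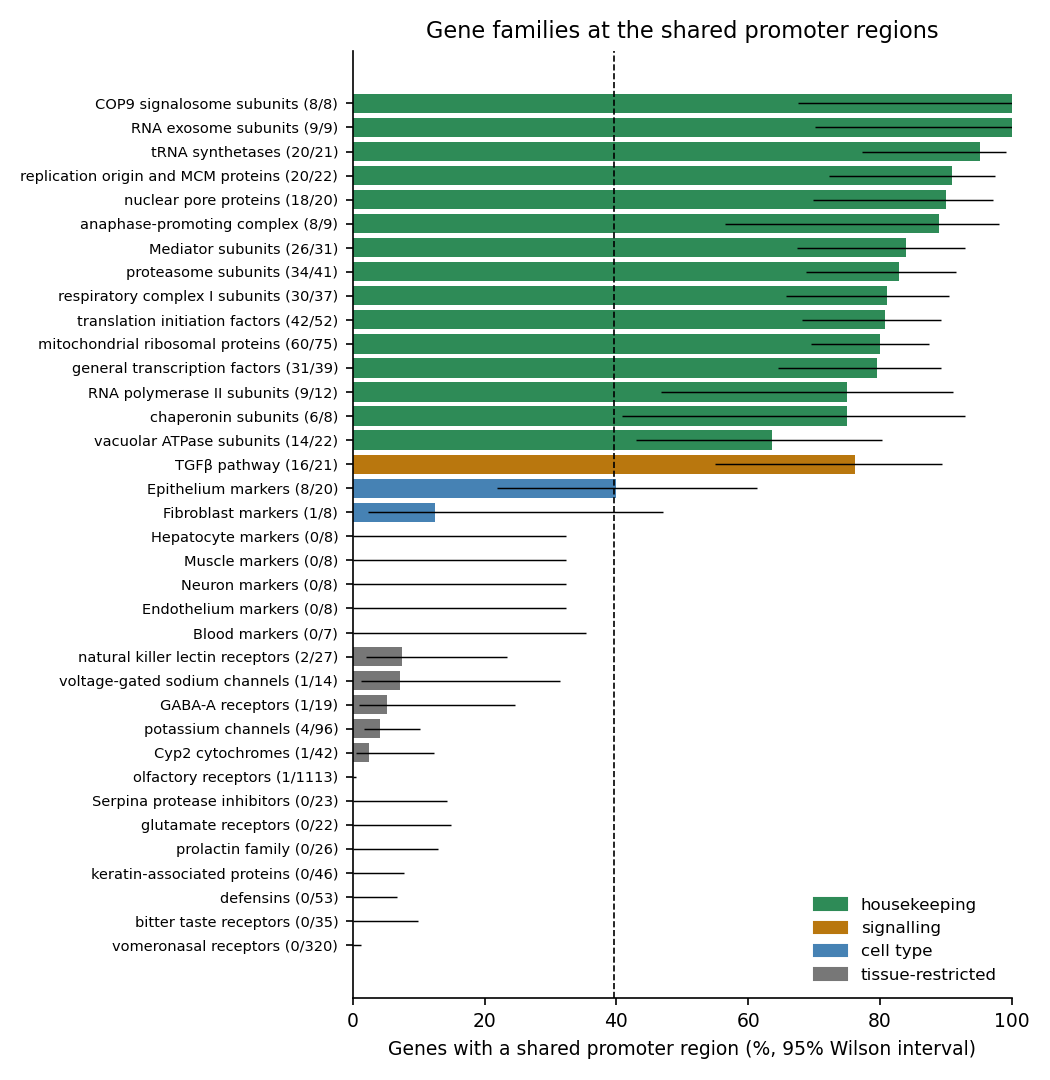
Percentage of genes with a shared promoter region (x axis, 95% Wilson intervals as lines) in each gene family or marker list, coloured by class, with the count of genes beside each name. The dashed line is the 39.7% of all protein-coding genes, and every housekeeping family lies above it while every tissue-restricted family lies below it.

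Housekeeping regions were narrower than the remaining members and more often at the top score. Their median widths were 507, 612 and 734.5 bp in the vehicle, TGFβ and 10 min lists (n = 338), against 581.5, 683 and 818 bp in the other members (n = 8082). All 3 scores stood at 1000 in 56.5% of them and in 44.3% of the others, a difference of 12.2 points (6.73 to 17.5).

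The TGFβ pathway transmits its signal from secreted ligands through paired serine/threonine kinase receptors to SMAD proteins. Of 21 listed genes 16 had a shared promoter region (76.2%, 54.9 to 89.4%). Among ligands and their binding proteins these were Tgfb1, with widths of 277, 546 and 536 bp (vehicle, TGFβ and 10 min lists, the order used from here on), and Ltbp1 with 463, 887 and 1672 bp. The ligands Tgfb2 and Tgfb3 had regions in the TGFβ and 10 min lists and none in the vehicle list. Ltbp3, which helps to store latent ligand, had a region in the vehicle list only.

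Both signalling receptors were members, Tgfbr1 with 467, 611 and 926 bp and Tgfbr2 with 1112, 1337 and 1301 bp, as were the type I receptors Acvr1 and Acvr1b. Of the co-receptors, Eng had regions in the TGFβ and 10 min lists only and Tgfbr3 in none. All listed SMAD genes were members. The regions of Smad2 (824, 861 and 1549 bp), Smad3 (458, 379 and 435 bp) and Smad4 (552, 652 and 580 bp) varied in different directions between lists. Among the negative regulators, Smad7, which blocks the receptors, had 342, 1324 and 1080 bp, and Skil, a corepressor of SMAD complexes, had 809, 1865 and 1624 bp. Smad6, the other inhibitory SMAD, had 1396, 1384 and 1540 bp, the corepressor Ski 569, 572 and 740 bp, and Tgif1 402, 287 and 446 bp. The ubiquitin ligase Smurf1 went from 1290 bp to 1769 bp and then 707 bp in the 10 min list. The 16 genes held 21 regions, so some had more than 1, and the widths given are of 1 region per gene. All widths of these pathway genes include joined gaps and were not recomputed gene by gene without joining. Of the 21 regions, 3 had the top score in all lists, beside 44.8% of all members.

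Epithelium markers were found in part among the shared promoter regions. Of 20 epithelium markers 8 had a shared promoter region (95% interval 21.9 to 61.3%), close to the 39.7% of all genes. These were the keratins Krt8, Krt18 and Krt19, the tight junction gene Ocln, the protease inhibitor Spint2, the splicing regulator Esrp2 and the transcription factor genes Elf3 and Grhl2. Cdh1, which encodes E-cadherin, had a region at its TSS in the 10 min list only, and Cldn4 and Ehf in the TGFβ list only. Epcam, Cldn3, Cldn7, Krt7, Esrp1, Ovol1, St14, Spint1 and Ap1m2 had none in any list. The share was near that of all genes, and 9 of the 20 markers were in no list. Of the markers of other cell types, 1 of 47 had a shared region (2.13%, 0.377 to 11.1%). A marker in no list was not shown to be closed, so no verdict on cell identity is drawn.

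The widths of the 8 epithelial regions varied. Krt8 had 594, 1442 and 1663 bp, Krt19 had 626, 1513 and 1524 bp, and Esrp2 had 653, 1852 and 1794 bp. Elf3 had 605, 1144 and 1172 bp and Spint2 255, 552 and 1295 bp. Krt18, the partner of Krt8, stayed at 497, 463 and 478 bp, and Ocln at 750, 607 and 810 bp. Grhl2 had 456, 297 and 807 bp. The median over these regions was 599.5, 875.5 and 1234.0 bp, compared with 579, 679 and 815 bp over all members. Of the 8 regions 1 had the top score in all lists, beside 44.8% of all members. These widths also include joined gaps and were not recomputed gene by gene without joining. The list was too short for more than this description.

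Markers of other cell types were nearly absent. Of 47 such genes 1 had a shared region (2.13%, 0.377 to 11.1%), Col1a1, a collagen chain of fibroblasts, with 538, 569 and 857 bp, while Col1a2, Col3a1, Dcn, Lum, Pdgfra, Pdgfrb and Thy1 had no region. None of the 7 blood, 8 muscle, 8 neuron, 8 endothelium or 8 hepatocyte markers had a shared region. Esam, Kdr, Gap43, Snap25 and Apob had a region at a TSS in the TGFβ list only.

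Long intergenic non-coding RNA genes were reached mostly by way of a coding neighbour. Of 1273 long intergenic non-coding RNA genes 473 had a shared promoter region (37.2%, 34.5 to 39.8%), and for 366 of them the same region also lay at the TSS of a protein-coding gene. Pseudogenes were at 1.65% and microRNA genes at 4.44%. No protein-coding gene was found at 301 members, which were narrower (476, 595 and 676 bp) than those with a single coding gene (571, 672 and 808 bp). Genes counted within 1000 bp of a region, so a narrower region also reaches fewer of them.

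Shared start regions of neighbouring genes were common. A member held 1 protein-coding gene in 7012 cases, 2 in 1084 and 3 in 23, so 13.1% (12.4 to 13.9%) held several. In 1030 of these the genes lay on both strands and in 77 on 1 strand. Whether genes on both strands point away from each other, as at a bidirectional promoter, was not checked. A gene counted when its TSS lay within 1000 bp of the region, so a wider region reaches more genes by the rule. Members with genes on both strands were wider than those with 1 gene in every list, with medians of 645.5 bp (621.0 to 670.0) against 571 bp (564 to 581) for vehicle, 752.5 against 672 bp for TGFβ and 887 against 808 bp for 10 min. Members with 3 coding genes were tied, and the first in chromosome order were those of Tor1aip1 and Tor1aip2, of Cdnf and Hspa14, of Rabgap1, Zbtb26 and Zbtb6, of Bbs12, Cetn4 and Fgf2, and of Fam63a and Prune, some of these symbols standing for more than 1 gene identifier. The region of Rabgap1, Zbtb26 and Zbtb6 (chr2:37298210-37299090) measured 765, 881 and 993 bp with the top score in all lists. That of the growth factor gene Fgf2 with Bbs12 and Cetn4 measured 1390 and 1533 bp in the vehicle and TGFβ lists and 498 bp in the 10 min list.

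Chromosomes differed in the share of their coding genes with a shared region. It was lowest on chromosome 14 with 26.1% (23.4 to 29.0%) and on X with 26.7% (24.0 to 29.6%), and highest on chromosome 8 with 47.5% (44.5 to 50.5%).

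The width of a member was compared between lists next. The median was 579 bp (95% interval 570 to 585) for vehicle, 679 bp (671 to 687) for TGFβ and 815 bp (805 to 822) for 10 min. Region by region, the ratio of TGFβ to vehicle width had a median of 1.084 (1.076 to 1.092), and 63.7% of members were wider in the TGFβ list. The ratio of 10 min to vehicle width had a median of 1.325 (1.313 to 1.338), and 83.8% were wider in the 10 min list. The first of these ratios rested on the joining of neighbouring intervals. When only overlapping or touching intervals were joined it was 1.008 (1.003 to 1.014), while the 10 min ratio was 1.362 (1.349 to 1.375).

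Similar shares were found over regions of every kind. At least 1.5 times the vehicle width was reached in the TGFβ list by 24.3% of members, beside 25.0% of all TGFβ regions that overlapped a vehicle region. A TGFβ region narrower by that factor was found at 6.77% of members, beside 5.88%. In the 10 min list 38.2% of members reached 1.5 times the vehicle width, beside 36.6% of all regions found in all lists. Distal regions of all 3 lists had smaller widths (392, 480 and 546 bp) and median ratios of 1.132 (1.123 to 1.141) for TGFβ and 1.282 (1.268 to 1.294) for 10 min.

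**Figure D3:**
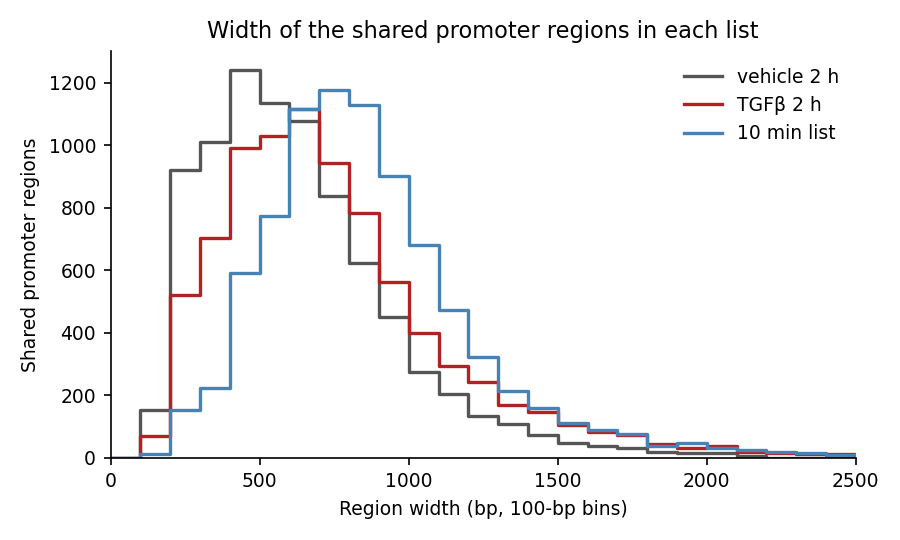
Number of shared promoter regions (y axis) by width in bp (x axis, 100-bp bins) in the vehicle (grey), TGFβ (red) and 10 min (blue) lists. The 10 min curve is shifted furthest to the right, with a median of 815 bp against 579 bp for vehicle and 679 bp for TGFβ.

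The extremes are named as a description, since they were picked for these values. Their widths include joined gaps. The widest member lay at Cfl1, which encodes the actin-severing protein cofilin, and Mus81, a DNA structure-specific nuclease (chr19:5487873-5491675), with 2779, 3803 and 3070 bp. It was followed by Schip1 (2465, 3221 and 1508 bp), Zfp703 (898, 3166 and 1681 bp), 5033430I15Rik with Atxn1 (620, 2905 and 696 bp) and Spsb1 (468, 2799 and 611 bp). In the last 2 the TGFβ list alone was wide. Most peaks within 1 TGFβ region, 12, were found at Cfl1 with Mus81 and at Rcor3, a corepressor subunit, followed by 11 at Sp3, which encodes a member of the SP family, and, named after their values were seen, at Schip1, Junb, Peg3 and Setd5.

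Ratios were ranked among members with 1 region in each list. The largest TGFβ to vehicle ratio, 12.1, belonged to Xist, the non-coding RNA of X inactivation (chrX:100676650-100678658), with 166, 2009 and 526 bp. Zhx2 (254, 2336 and 2002 bp), Cox19 (168, 1541 and 1658 bp), Zfp407 (155, 1364 and 1282 bp) and Nedd4l (236, 2059 and 1083 bp) followed. In all 5 the vehicle region was a narrow one, of at most 254 bp, and it held 1 peak, or 2 at Nedd4l. Cox19, a chaperone of copper delivery to mitochondria, also had the largest 10 min to vehicle ratio, 9.87, ahead of Cd3eap with Ppp1r13l at 8.99.

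At the other end, Marveld1 had 1429 bp in the vehicle list and 262 and 275 bp in the others. Uhrf1, which maintains DNA methylation through replication, had 1297, 248 and 1387 bp, and Fam53c had 924, 216 and 1003 bp. Fam194a (710, 165 and 1187 bp) and Gabbr1 (1005, 243 and 457 bp) completed the 5 smallest ratios. For Uhrf1, Fam53c and Fam194a the TGFβ list alone was narrow. The smallest 10 min to vehicle ratios were those of Plscr2 (1499, 2446 and 253 bp), Khdrbs3 (1114, 914 and 199 bp) and Zbed3 (1233, 1243 and 222 bp), in which the 10 min list alone was narrow.

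The position of the regions around the start site was measured in the 6138 members with 1 coding gene and 1 region in each list. The TSS lay inside the region in 89.3% of them (88.5 to 90.0%) for vehicle, 92.5% (91.8 to 93.1%) for TGFβ and 93.9% (93.3 to 94.5%) for 10 min. The median upstream edge was at -257, -281 and -354 bp and the median downstream edge at 286.5, 346.5 and 432 bp. Within a gene, the 10 min region reached past the vehicle region by a median of 40 bp upstream (37 to 43) and 102 bp downstream (92 to 115), and the TGFβ region by 7 bp (5 to 8) and 18 bp (15 to 20). At 250 bp after the TSS, 53.5% of promoters were covered for vehicle, 64.1% for TGFβ and 79.4% for 10 min, while at 250 bp before it the shares were 49.3, 54.3 and 68.4%. Joined gaps count as covered here, and these positions and shares were not recomputed without joining.

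**Figure D4:**
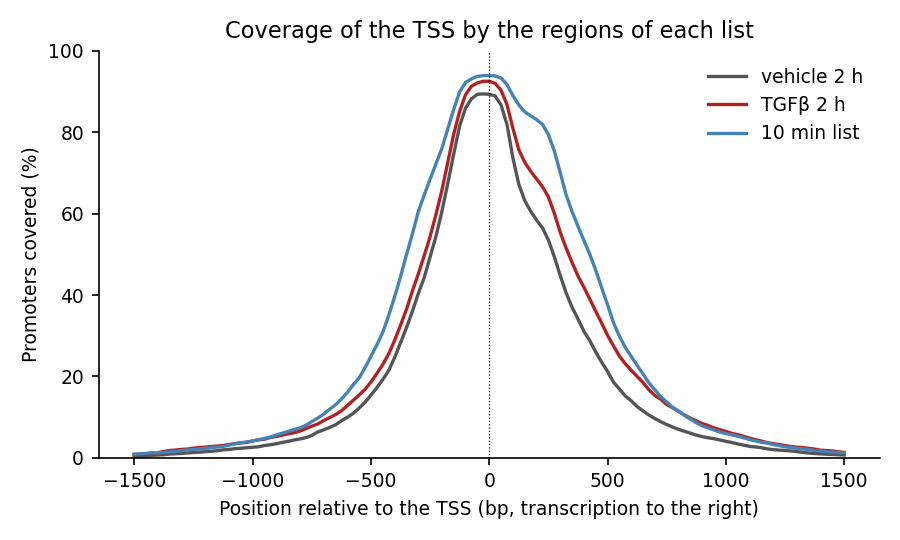
Percentage of 6138 single-gene promoters covered by a region (y axis) at each position relative to the TSS in bp (x axis, transcription to the right) in the vehicle (grey), TGFβ (red) and 10 min (blue) lists. Coverage peaks just before the TSS, at 89.4, 92.5 and 93.9%, and falls with a shoulder on the downstream side that is highest in the 10 min list. Joined gaps count as covered.

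The displacement of edges between lists had more than 1 mode. In the 8296 members with 1 region in each list, 53.3% of the 16592 TGFβ edges and 42.8% of the 10 min edges lay within 60 bp of the vehicle edge. Beyond these, a second group of edges stood further out. Counted in bins of 20 bp, outward shifts of the 10 min edge fell to 401 in the bin from 100 bp, rose to 872 in the bin from 180 bp and fell again to 410 in the bin from 220 bp. TGFβ edges had 272 in the bin from 80 bp and 393 in the bin from 160 bp. Inward shifts showed the same step, with 305 TGFβ edges in the bin from -160 bp beside 236 in the bin from -100 bp. Shifts of 120 to 240 bp outward made up 23.6% of 10 min edges (23.0 to 24.3%) and 11.4% of TGFβ edges (10.9 to 11.9%), and inward ones 3.75% and 8.46%. Both edges had moved outward by such a step in 479 members in the 10 min list (5.77%) and in 90 in the TGFβ list (1.08%). The limits of 60, 120 and 240 bp (the last not included) were chosen after this pattern had been seen.

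**Figure D5:**
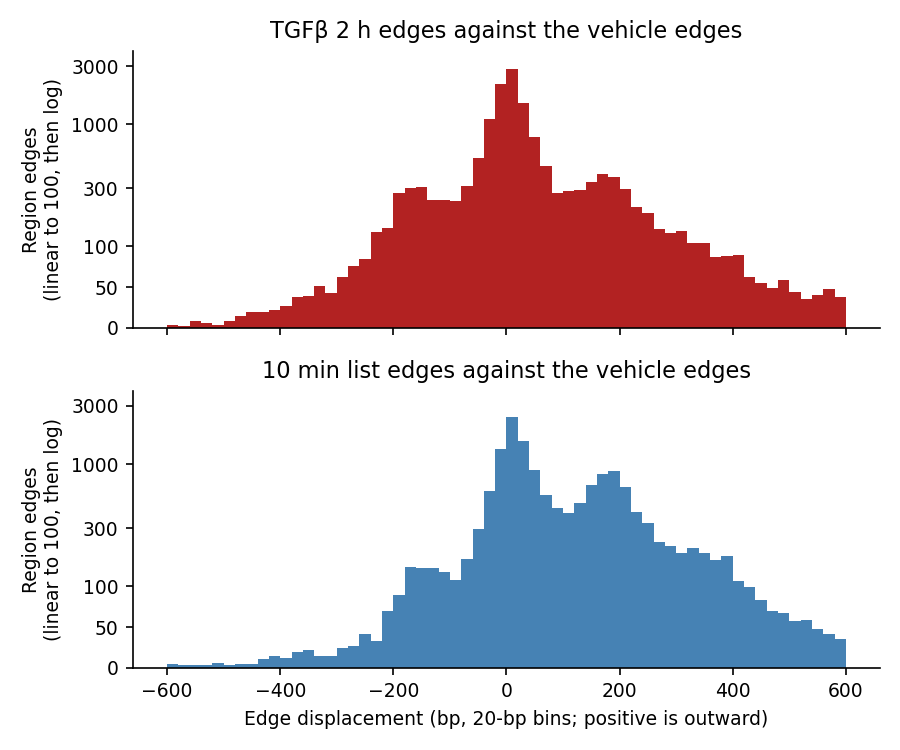
Number of region edges (y axis, linear to 100 and logarithmic above) by their displacement from the vehicle edge in bp (x axis, 20-bp bins, positive is outward) for the TGFβ list (top, red) and the 10 min list (bottom, blue), 16592 edges each. Next to the main mode near 0 stands a second one, highest at 160 bp for TGFβ with 393 edges and at 180 bp for 10 min with 872, and a lower one on the inward side.

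This step stood out less at distal regions of all lists. There the TGFβ bins fell steadily from 556 edges at 80 bp to 202 at 200 bp, and the 10 min bins stayed level, between 612 and 658 from 80 to 160 bp, before falling to 387 at 200 bp. The share of outward shifts of 120 to 240 bp was 18.7% for 10 min edges, 4.89 points below the promoters (4.01 to 5.77), and 10.0% for TGFβ edges, 1.39 points below (0.721 to 2.06). At promoters the sides of the gene differed in the TGFβ list, with such shifts in 13.4% of downstream and 9.24% of upstream edges (difference 4.15 points, 3.04 to 5.27). For the 10 min list the shares were 23.8% and 24.1%, and the interval spans 0 (-0.31 points, -1.82 to 1.2). Upstream edges were the steadier ones in both lists, 63.2% of them staying within 60 bp in the TGFβ list against 42.7% of downstream edges, and 49.8% against 34.5% in the 10 min list.

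The shared promoter regions had high scores. The cap of 1000 was reached by 55.5% of members for vehicle, 79.8% for TGFβ and 63.5% for 10 min, and by 44.8% (43.8 to 45.9%) in all of them. Distal regions of all 3 lists reached it in 33.1, 70.2 and 29.3%, and in all lists in 18.2%. The difference between promoters and distal regions was 22.5 points (21.0 to 23.9) for vehicle, 9.61 points (8.3 to 10.9) for TGFβ and 34.2 points (32.7 to 35.6) for 10 min. A member held a median of 3 peaks for vehicle, 3 for TGFβ and 4 for 10 min, and 62.9% had more peaks in the 10 min than in the vehicle list.

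Genes with several start sites were looked at next. Starts separated by at least 1000 bp were present in 4590 of the 8882 genes, and 348 of these (7.58%) had shared regions at more than 1 place. Ablim1, Arhgap22 and Sgms1 had 4 each, and 10 further genes had 3, among them Lmna, which encodes the nuclear lamins A and C, Nfe2l1, a regulator of proteasome genes, and Pfkm, a phosphofructokinase. Of the 10948 TGFβ regions at a TSS, 11.7% were in the 10 min list and not the vehicle list, and 9.78% were in neither. In 412 of the 8882 genes (4.64%) a TGFβ region absent from the vehicle list lay within 1000 bp of an annotated start. That start was not required to differ from the one at the shared region. The widest of these at the top score were at the kinase gene Tnk2 (chr16:32659621-32660983, 1363 bp), which was absent from the 10 min list too, and at Tmem63a (1345 bp), Tsc22d1, a gene known to respond to TGFβ (1025 bp), and Cic (707 bp), which were in the 10 min list.

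Distal regions found in the TGFβ list and not in the vehicle list lay within 50 kb of 64.4% of members, compared with 46.5% of the coding genes without a shared promoter region measured from their TSS (interval of the difference 16.6 to 19.3 points). These sets are unlike, since the first counts regions and the second genes. The second also holds nearly all genes of the tissue-restricted families. What lies behind the difference was not tested. Among members the share was 65.3% where the TGFβ region was at least 1.5 times as wide as in vehicle and 64.0% where it was no wider, and the interval of this difference spans 0 (1.26 points, -1.42 to 3.92).

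At the limits of the rule, the member furthest from a start site had a nearest TSS 999 bp away, and the nearest region outside lay at 1007 bp. The smallest overlap of a member with the vehicle list was 50 bp and with the 10 min list 126 bp. Just outside, a TGFβ region at a TSS lay 6 bp from a vehicle region and another 59 bp from a 10 min region. The narrowest member measured 151 bp.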

How the data were processed

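The deposited files were peak lists. The authors trimmed, aligned (mm9) and filtered reads with the ENCODE ATAC-seq pipeline, called peaks with macs2 (MACS2 2.1.2 in the submitters' processing notes) and kept those reproducible between replicates. The score in the deposited lists, from 540 to 1000, was taken as the authors' scaled irreproducible discovery rate. The lists hold no counts. The study states the read depth of each library, which was not used here. No column of the authors' comparisons was present.

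Lists were refined and overlapped as described (Python 3, numpy, pandas), with functions tested on simulated data. All regions lay inside the mm9 chromosomes. Merged widths include joined gaps. No test was run. Shares carry Wilson, differences Newcombe and medians exact order-statistic 95% intervals. The members and gene lists were chosen with earlier results of these data known. Named regions were the 5 widest, the extremes of the width ratios (5 or 3 each, among members with 1 region per list), the 5 with most genes, the 3 with most peaks and marker or family genes. For 1 TGFβ sample the labels conflict on time, and its title (10 min) was followed. Some genes and sequences are not reported here.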

Additional observations from a re-analysis of the deposited data

How the results depend on the processing

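No paired analysis was possible because a single list stood for each condition, and for that reason no replicate could be left out. The members numbered 8420, and 4658 when each list was restricted to peaks at or above its own median score. Restricting to these peaks also moved the share of TGFβ regions that are members to 26.9%, of coding genes with a member to 23.2%, of members with several coding genes to 15.2% and the TGFβ to vehicle ratio to 1.045. With intervals of at least 300 bp the first 2 shares were 27.6% and 32.0% and the TGFβ and 10 min ratios 1.044 and 1.307. With the centre of the TGFβ region required inside the other regions, these were 19.1%, 35.0%, 1.044 and 1.282. With only touching intervals merged, the ratios were 1.008 and 1.362, and the outward steps of 120 to 240 bp, an alternative added after seeing the data, were 11.8% for TGFβ and 24.9% for 10 min. With a TSS window of 200 bp the shares were 21.0%, 38.5% and, for several genes, 12.4%. With TSS of coding genes only, 21.1% of TGFβ regions were members. With the TGFβ list limited by score to the number of vehicle regions, the shares were 37.9% and 35.6% and the 10 min ratio 1.312. The high CpG share of 65.6% was 51.3% in a window from 500 bp before to 100 bp after the TSS (10.3% without a region) and 63.8% at the most 5′ start. The ETS share was 26.7% in the wider window (4.87% without a region). No ratio turned below 1. In 21 other recomputed values the result stayed within its interval or, for counts, within 1.5 times. The lists carry no depth per region, so a gene without a region was not listed rather than shown closed.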
